A study of Mus musculus with 3 samples.

Results

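The genes described here are the mouse interleukins and interleukin receptors: all genes whose symbol starts with Il and a digit, apart from Il1b and Il18, which the rule leaves out. The rule found 82 genes, and 79 of them had a named probe on the array, out of 20546 named genes in all. Il11ra2, Il12b and Il4i1b had no named probe and have no value. Of the 79 genes, 34 encode ligands, 37 receptor chains and 6 antagonists or decoys, and the other two are Il4i1, an amino acid oxidase named after its induction by IL-4, and Il1bos, a noncoding RNA. The choice used gene names, and no measured value entered it.

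RNA of female mice was hybridised to single-colour Agilent arrays, with 1 array for each of 3 groups. The first group is spleen treated with SiO2 (silica), the SiO2 spleen, read on what is called the SiO2 array below. The second is spleen given SiO2 and 3TF-3C, a label that the submitters do not spell out, read on the SiO2-3TF-3C array. Both were taken on day 82, and the series calls the second kind hepatized. The third is normal liver, a positive control by the labels, read on the liver array. Each group was a pool of 5 samples by the design text, which does not say whether this holds for liver, and strain, age and the origin of the livers are unstated there. The series addresses how far the treated spleen takes on liver expression. With 1 array per group no difference has a replicate check, no test was made and no p-value is given. The number of arrays limits the precision, and ± marks the technical error that the scanner software's signal errors give, which leaves out the spread between animals.

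Interleukins are secreted proteins through which leukocytes, stroma and epithelia signal to each other. Most bind receptors built of a private chain and a shared one: the common gamma chain for IL-2, IL-4, IL-7, IL-9, IL-15 and IL-21, the common beta chain for IL-3 and IL-5, and gp130 for IL-6, IL-11 and IL-27. These receptors signal through JAK kinases and STAT factors, whereas receptors of the IL-1 and IL-17 families signal through adaptor proteins to NF-kappaB. The spleen is a lymphoid organ whose lymphocytes depend on such chains, and hepatocytes answer IL-6 and IL-1 by secreting acute phase proteins.

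Levels are log2 intensities after subtraction of the array's 75th percentile, so 0 is that percentile, and they are compared between arrays for the same probe, not between genes. A gene counted as measured in a comparison where the scanner software called its probe well above background on at least 1 of the 2 arrays, and a difference had to reach 2-fold (1 on the log2 scale) to be counted. The share of spots well above background was between 77.2% and 81.3% on the 3 arrays, and no spot was saturated (0 on each). Median differences here and below cover only genes well above background on both arrays, unless another setting is named. All 8 hepatocyte markers were at least 2-fold higher on the SiO2-3TF-3C array than on the SiO2 array. Over 6 of them the median difference was 7.63. B and T cell markers had medians of -0.57 and -0.55 in that comparison, 6 of 6 and 6 of 6 lower and none by 2-fold, macrophage markers -0.02, neutrophil markers 0.40 and erythroid markers 2.33. Liver against the SiO2 array gave medians of 10.06 for hepatocyte, -1.23 for B cell, -1.54 for T cell, -0.52 for macrophage, -1.36 for neutrophil and -0.998 for stromal markers. All 6 B cell and all 6 T cell markers were still well above background on the liver array. Their summed level was 7.04, 6.50 and 5.71 for B cells and 4.85, 4.24 and 3.56 for T cells on the SiO2, SiO2-3TF-3C and liver arrays. Fewer cells of a type and less RNA per cell cannot be told apart in such bulk samples, and the part of these shifts in the receptor differences below was not tested.

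The 4 promoters printed here were chosen because they belong to 3 genes with higher signal in liver and to Il7r, a lymphocyte receptor with lower signal there. Each is the 250 bases before the RefSeq transcription start on GRCm38.p6, 5′ to 3′ on the gene's strand, in lower case with motif matches in capitals. They lie at chr16:26581455-26581704 (plus strand, Il1rap), chr6:113471205-113471454 (plus strand, Il17rc), chr7:102018233-102018482 (minus strand, Il18bp) and chr15:9529877-9530126 (minus strand, Il7r).
Il1rap: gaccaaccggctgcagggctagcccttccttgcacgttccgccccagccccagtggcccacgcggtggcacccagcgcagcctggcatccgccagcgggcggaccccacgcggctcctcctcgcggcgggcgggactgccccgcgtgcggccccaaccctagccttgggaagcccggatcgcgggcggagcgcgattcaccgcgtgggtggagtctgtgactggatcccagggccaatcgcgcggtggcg
Il17rc: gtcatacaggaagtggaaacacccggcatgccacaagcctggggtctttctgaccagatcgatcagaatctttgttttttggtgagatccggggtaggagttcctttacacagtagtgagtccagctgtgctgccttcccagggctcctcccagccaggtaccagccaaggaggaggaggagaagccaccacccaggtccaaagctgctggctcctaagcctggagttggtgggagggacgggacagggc
Il18bp: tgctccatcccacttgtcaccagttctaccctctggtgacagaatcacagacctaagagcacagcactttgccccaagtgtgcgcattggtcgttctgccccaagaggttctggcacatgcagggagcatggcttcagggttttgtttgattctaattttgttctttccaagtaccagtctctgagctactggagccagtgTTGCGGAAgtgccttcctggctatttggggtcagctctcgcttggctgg
Il7r: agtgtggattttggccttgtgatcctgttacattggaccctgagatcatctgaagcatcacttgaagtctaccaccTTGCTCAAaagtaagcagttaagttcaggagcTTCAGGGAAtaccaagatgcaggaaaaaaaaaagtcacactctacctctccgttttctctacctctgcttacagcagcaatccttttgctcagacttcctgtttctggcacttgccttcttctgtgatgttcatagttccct

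For 8 motifs, words were searched on both strands: HNF1, HNF4 (CAAAGTCCA), C/EBP (TTGCNNAA), STAT (TTCNNNGAA), ISRE, ETS (CCGGAAGT), GATA and RUNX. In the printed promoters no matches overlap. Il1rap had no match in a promoter of 74.4% GC with 30 CpG dinucleotides, against a median of 52.4% GC over 32851 promoters of the same length. Il17rc had no match either, at 57.6% GC. Il18bp held 1 C/EBP match, which starts 49 bases before the transcription start, and Il7r held a C/EBP match at 174 and a STAT match at 142 bases. The table held 80 promoters of 65 of the 82 genes: 14 of them (17.5%) held the C/EBP motif, against 9.56% of all promoters, and 9 (11.25%) the STAT motif, against 7.02%. HNF1 and HNF4 words occurred in 0 of the 80, and in 0.00913% and 0.383% of all promoters. The GATA word, AGATAA, was in 13 of the 80 (16.25%), against 9.99% of all promoters. ISRE was in 2 (2.5%), against 2.98%, and the ETS word in 0, against 2.88%. For RUNX the word was TGTGGTT, held by 6 (7.5%), against 4.4%. A match is a description of these letters and not a binding site.

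Of the 79, 59 were well above background on all 3 arrays, 8 on 1 or 2 of them and 12 on none. By array, 63 were well above background on the SiO2 array, 65 on the SiO2-3TF-3C array and 59 in liver. These are 79.7%, 82.3% and 74.7% of the 79, near the 83.2%, 84.5% and 81.3% of all genes. Ligands were less often measurable, with 23, 25 and 21 of 34 well above background, against 33, 33 and 32 of 37 receptors. The 12 genes not well above background anywhere were Il5, Il9, Il20, Il23a, Il25, Il31, Il1f5, Il1f6, Il1f8, Il1rapl1, Il1rapl2 and Il20ra. Of the 79, 30 genes, 5 ligands and 23 receptors among them, had a mean level above that of the median gene on the array.

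Between the SiO2-3TF-3C array and the SiO2 array, 1 of 67 measured genes was at least 2-fold higher, Il1rap by the brighter of its 2 probes, and 3 were at least 2-fold lower: Il12a, Il22 and Il22ra2. These are 1.49% and 4.48% of the 67, and over all 17684 genes measured 5.23% were higher and 1.39% lower by that rule. The share higher was thus below that of all genes and the share lower above it, on 1 and 3 genes only. The median difference of the interleukin genes was -0.20 and that of all genes -0.16, with 44 of 61 (72.1%) below 0, against 67.1% of all genes. Among the 30 genes above the median gene, 1 (3.33%) was higher and 0 lower, against 5.66% and 0.341% of all genes so chosen. For 24 of the 61 genes measured on both arrays, the difference was smaller than its technical error, which ran from 0.20 to 0.32. Il5ra, at -0.77, was the first gene short of the limit on the low side, and Il1rl1, at 0.89, on the high side.

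The liver array stood farther from the SiO2 array, with 23 of 63 measured genes (36.5%) at least 2-fold lower and 5 (7.94%) at least 2-fold higher. The background was 16.7% lower and 15.1% higher. The median difference was -0.63, against -0.15 over all genes. Receptors made up 15 of the 23: 15 of 33 were lower and 4 higher, with a median of -0.72, whereas 5 of 23 ligands were lower and 0 higher, with a median of -0.37. Among the 30 genes above the median gene, 16 (53.3%) were lower in liver, against 19.1% of all genes so chosen. Normexp background correction, which lifts dim signals with an offset, brought the counts to 15 lower and 2 higher and turned the ligand median to 0.05. The SiO2-3TF-3C array was at least 2-fold above liver in 18 of 65 genes, against a background of 10.5%, and below it in 5, against 15.5%. Among the 30 above the median gene these were 13 and 2, against 11.5% and 15%. Those 5 were Il1rap, Il17rc, Il17rb, Il13ra1 and Il6. The SiO2 array enters both spleen and liver differences, so both sets of values share it.

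**Figure D1:**
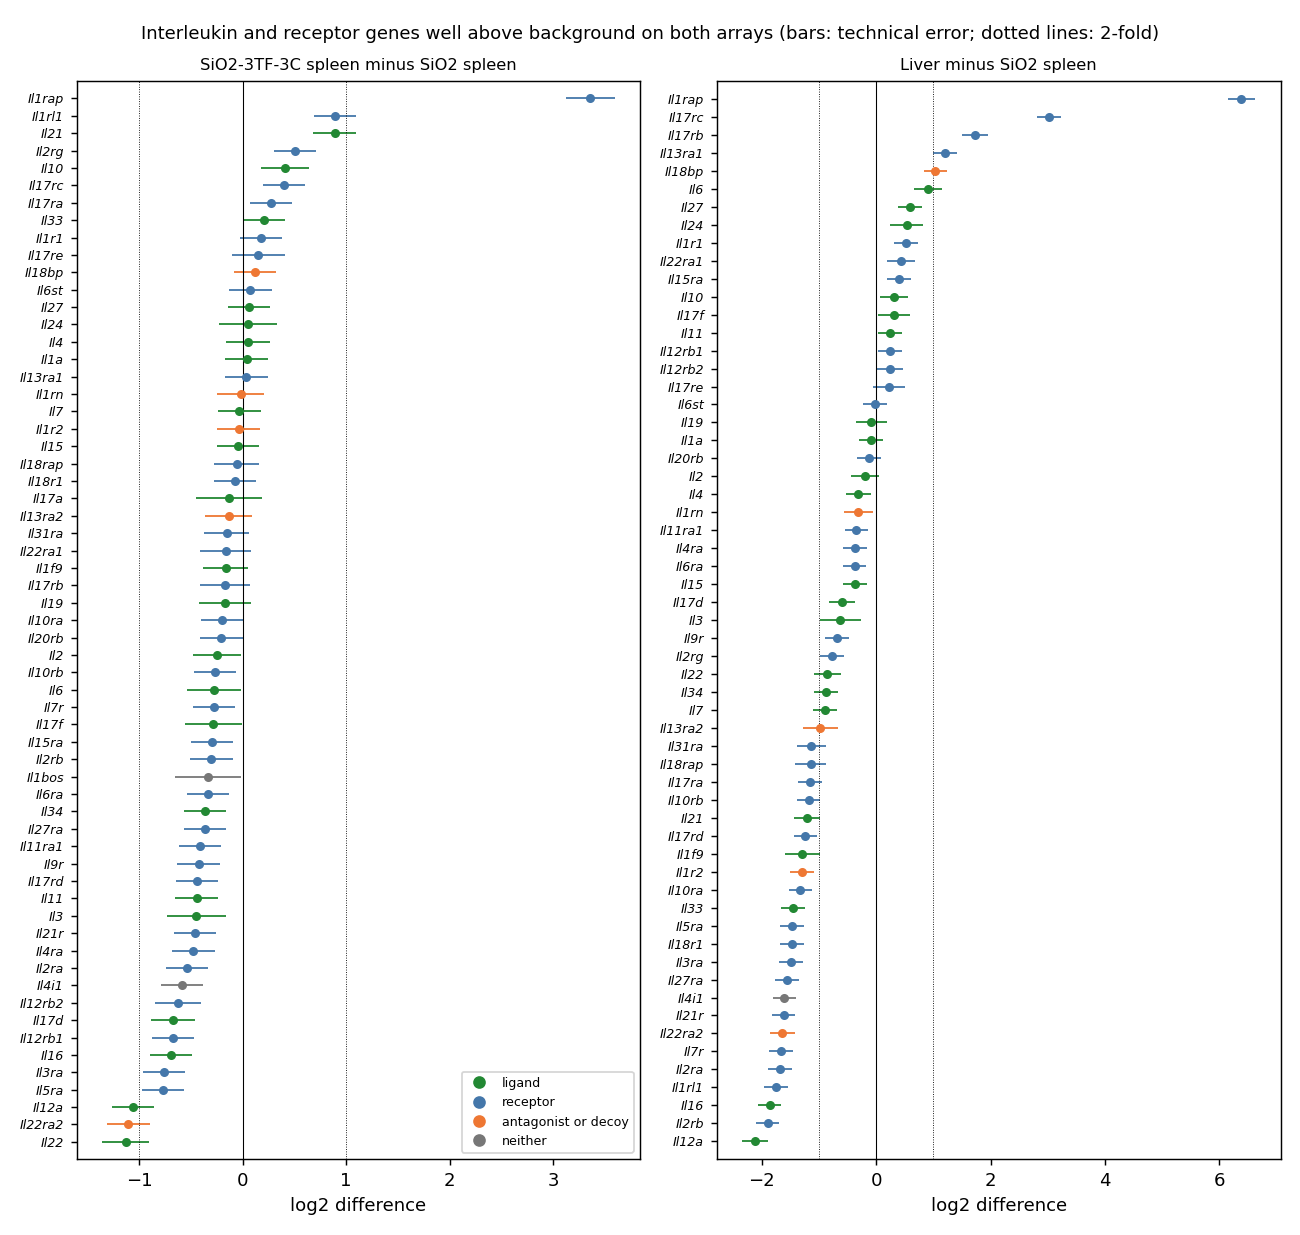
Log2 difference of each interleukin, receptor, antagonist and decoy gene that was well above background on both arrays, for SiO2-3TF-3C minus SiO2 array (left) and liver minus SiO2 array (right). Points are coloured by role, bars are technical errors and dotted lines mark 2-fold; on the left most points lie near -0.20 with Il1rap alone at 3.36, and on the right 23 genes lie beyond the lower line.

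Among the ligands, Il33 and Il16 were lower in liver than in both spleens. Il33, the nuclear alarmin of stromal and endothelial cells, had levels of 1.40 on the SiO2 array, 1.61 on the SiO2-3TF-3C array and -0.05 on the liver array. The spleens differed by 0.20 and liver was 2.74-fold lower than the SiO2 array (-1.46 ± 0.20). Il16, a T cell chemoattractant, had levels of 2.30 on the SiO2 array, 1.60 on the SiO2-3TF-3C array and 0.44 on the liver array. Liver was 3.63-fold lower than the SiO2 array (-1.86 ± 0.20), and the SiO2-3TF-3C array lay between them at -0.70 ± 0.20 from the SiO2 array. Il34, a second ligand of the CSF-1 receptor, kept the same order at -1.36, -1.73 and -2.24 on the SiO2, SiO2-3TF-3C and liver arrays, and its liver difference of -0.88 ± 0.21 did not reach 2-fold.

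Il7 and Il15, the survival cytokines of lymphocytes that stroma and myeloid cells make, differed little between the spleens, by -0.03 and -0.05. Il7 had levels of -2.38 on the SiO2 array, -2.41 on the SiO2-3TF-3C array and -3.27 on the liver array. Il15 had levels of -2.27 on the SiO2 array, -2.31 on the SiO2-3TF-3C array and -2.64 on the liver array. In both genes liver was the lowest array, by -0.89 ± 0.22 and -0.37 ± 0.21 against the SiO2 array. Il21, made by follicular helper T cells, was 1.85-fold higher on the SiO2-3TF-3C array (0.89 ± 0.21), short of 2-fold. Its levels were -2.53 on the SiO2 array, -1.64 on the SiO2-3TF-3C array and -3.74 on the liver array, and Il21 was the ligand with the largest gap between the SiO2-3TF-3C array and liver, at 2.10 ± 0.22. Il2, Il4 and Il13 stayed dim: Il2 and Il4 differed by -0.25 and 0.05 between the spleens, and Il13 was well above background on the SiO2 array only, at least 1.71-fold above the SiO2-3TF-3C array.

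Il6, the main inducer of the acute phase response in hepatocytes, was dim on every array, with levels of -4.36 on the SiO2 array, -4.64 on the SiO2-3TF-3C array and -3.45 on the liver array. The SiO2-3TF-3C array was -0.28 ± 0.26 from the SiO2 array and 2.28-fold below liver (-1.19 ± 0.25; -0.68 after normexp background correction). Il11 and Il27, other ligands of gp130 receptors, differed by -0.44 and 0.06 between the spleens. Il12a, the p35 chain of IL-12, had levels of -1.57 on the SiO2 array, -2.64 on the SiO2-3TF-3C array and -3.69 on the liver array. It was 2.09-fold lower on the SiO2-3TF-3C array (-1.06 ± 0.21) and 4.34-fold lower in liver (-2.12 ± 0.22). After normexp background correction the spleen difference was -0.60, below 2-fold. Over the alternatives the smallest liver difference from the SiO2 array was -1.01. The smallest gap between the SiO2-3TF-3C array and liver was 0.41, below 2-fold.

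Il10, the anti-inflammatory ligand, had levels of -4.27 on the SiO2 array, -3.86 on the SiO2-3TF-3C array and -3.95 on the liver array, and its 3 arrays spanned less than 2-fold. Il22, which acts on epithelia and hepatocytes, was 2.19-fold lower on the SiO2-3TF-3C array than on the SiO2 array (-1.13 ± 0.23), with levels of -3.21 on the SiO2 array, -4.35 on the SiO2-3TF-3C array and -4.07 on the liver array. Here both the SiO2-3TF-3C array and liver were low. The difference shrank to -0.41 after normexp background correction. Il19 and Il24 on the SiO2-3TF-3C array differed by -0.17 and 0.05 from the SiO2 array. Among the IL-1 ligands, Il1a had nearly the same level everywhere, at -2.58 on the SiO2 array, -2.55 on the SiO2-3TF-3C array and -2.67 on the liver array. Il1f9, an epithelial relative of IL-1, was 2.44-fold lower in liver (-1.29 ± 0.30) and -0.17 between the spleens. Of the IL-17 ligands, Il17a, Il17d and Il17f were measured on both spleen arrays and differed by -0.14, -0.67 and -0.28. A second Il17d probe gave -0.02 between the spleens, so the size of that difference depends on the probe.

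**Figure D2:**
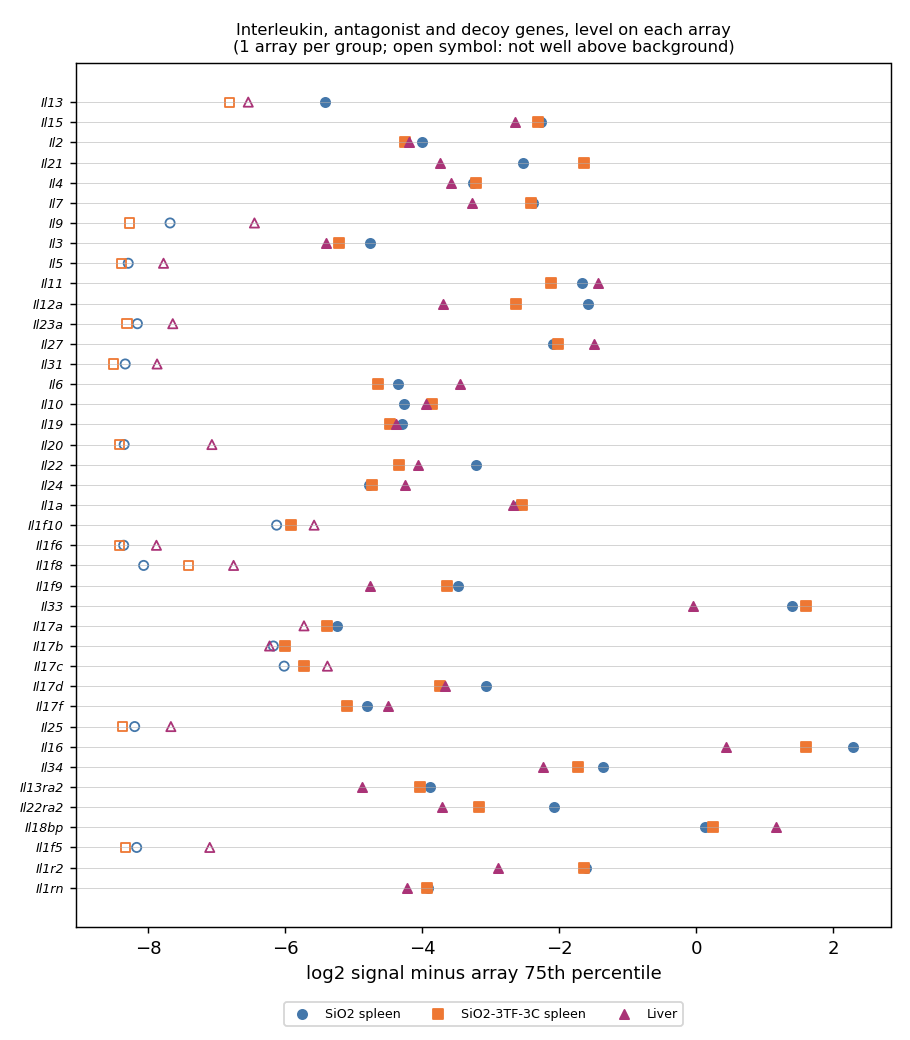
Level of each ligand, antagonist and decoy gene on the 3 arrays (log2 signal minus the array's 75th percentile), 1 point per array, with open symbols where the probe was not well above background. Points are to be compared within a row; Il33 and Il16 show the spleens at 1.40 to 2.30 and liver at -0.05 and 0.44, and the open symbols cluster at the left.

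Antagonists and decoys blunt these signals. Il18bp, the secreted IL-18 binding protein, was 2.05-fold higher in liver than on the SiO2 array (1.03 ± 0.20) and had levels of 0.13 on the SiO2 array, 0.25 on the SiO2-3TF-3C array and 1.17 on the liver array. The 2 spleen arrays were alike within their technical error. Its liver difference was 0.91 after normexp background correction, 0.97 after quantile normalization or with the median as the scale, and 0.97 in the authors' deposited table, each under 2-fold. Il1rn, the IL-1 receptor antagonist, differed by -0.02 between the spleens and by -0.31 ± 0.25 in liver, with levels of -3.92, -3.94 and -4.23 on the SiO2, SiO2-3TF-3C and liver arrays. Il1r2, a decoy that binds IL-1 without signalling, stood at -1.60 on the SiO2 array, -1.64 on the SiO2-3TF-3C array and -2.89 on the liver array. It was 2.45-fold lower in liver (-1.29 ± 0.21; -0.77 after normexp background correction). Il22ra2, the soluble IL-22 binding protein, was 2.15-fold lower on the SiO2-3TF-3C array (-1.10 ± 0.21) and 3.12-fold lower in liver, with levels of -2.07 on the SiO2 array, -3.18 on the SiO2-3TF-3C array and -3.72 on the liver array. The genes of IL-22 and its binding protein were thus both among the 3 at least 2-fold lower on the SiO2-3TF-3C array than on the SiO2 array. Neither stayed 2-fold lower under every alternative. After normexp background correction Il22ra2 gave -0.64 between the spleens and -0.71 in liver. Il13ra2, the IL-13 decoy, gave -0.14 between the spleens and -0.98 in liver.

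Of the receptor chains of the common gamma family all 8 were measured. Between the spleens 7 of 8 were below 0 and none by 2-fold (median -0.36), where 67.1% of all genes were below 0 (median -0.16). In liver 4 of 8 were at least 2-fold lower (median -1.19), against 16.7% of all genes (median -0.15). Il2rb, the signalling beta chain for IL-2 and IL-15, had levels of 1.35 on the SiO2 array, 1.05 on the SiO2-3TF-3C array and -0.54 on the liver array. Liver was 3.72-fold below the SiO2 array (-1.89 ± 0.20). Il7r, the IL-7 receptor of naive T cells and lymphoid precursors, had levels of 1.48 on the SiO2 array, 1.20 on the SiO2-3TF-3C array and -0.18 on the liver array, and liver was 3.17-fold lower (-1.66 ± 0.20). Il21r, found on B, T and NK cells, had levels of 2.37 on the SiO2 array, 1.91 on the SiO2-3TF-3C array and 0.76 on the liver array, and liver was 3.06-fold lower (-1.61 ± 0.20). Il2ra, the high-affinity chain that regulatory T cells carry, had levels of -1.09 on the SiO2 array, -1.62 on the SiO2-3TF-3C array and -2.77 on the liver array, and liver was 3.21-fold lower (-1.68 ± 0.21). In these 4 genes the SiO2-3TF-3C array lay -0.28 to -0.54 from the SiO2 array and more than 2-fold above liver. Il2ra fell short of 2-fold above liver after normexp background correction, at 0.62. The 4 are those of the 8 with a low liver value, which favours a level above liver, so nothing is concluded from it. B and T cell markers had medians of -0.57 and -0.55 between the spleens and -1.23 and -1.54 in liver.

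Il2rg, the common gamma chain itself, went the other way between the spleens. Its levels were 0.41 on the SiO2 array, 0.91 on the SiO2-3TF-3C array and -0.36 on the liver array, which made the SiO2-3TF-3C array 1.42-fold higher (0.50 ± 0.20), the single chain of the 8 above 0. Il4ra, the IL-4 and IL-13 receptor alpha chain, had levels of -0.83 on the SiO2 array, -1.30 on the SiO2-3TF-3C array and -1.20 on the liver array, and its 3 arrays were within 2-fold. A second Il4ra probe gave -0.44 between the spleens and 0.13 in liver, so the liver direction depends on the probe. Il15ra, which presents IL-15 to neighbouring cells, was bright on all arrays at 4.001 on the SiO2 array, 3.70 on the SiO2-3TF-3C array and 4.40 on the liver array, with liver highest. Its other probe also put liver highest, by 1.25, and gave 0.26 between the spleens, so the spleen direction depends on the probe. Il9r differed by -0.43 and -0.68 on the SiO2-3TF-3C array and liver, and its other probe put liver more than 2-fold lower, at -1.26.

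Il3ra and Il5ra, alpha chains that pair with the common beta chain, were lower, though not by 2-fold in the spleen. Il3ra, the IL-3 receptor alpha chain of basophils and plasmacytoid dendritic cells, had levels of -0.13 on the SiO2 array, -0.89 on the SiO2-3TF-3C array and -1.62 on the liver array. Il5ra, the IL-5 receptor alpha chain of eosinophils and B-1 cells, had levels of 0.46 on the SiO2 array, -0.31 on the SiO2-3TF-3C array and -1.01 on the liver array. The spleen differences were -0.76 ± 0.20 and -0.77 ± 0.20, and the liver differences -1.49 ± 0.21 and -1.47 ± 0.20. Among eosinophil genes, the granule genes Epx and Prg2 were higher on the SiO2-3TF-3C array, by 2.06 and 1.51, and the surface marker Siglecf differed by 0.06. The list of 5 measured eosinophil and mast cell markers had a median of 0.23. Csf2rb, the common beta chain, differed by 0.19 between the spleens and -1.11 in liver. Csf2ra, another alpha chain that pairs with it, differed by -0.16 ± 0.20 between the spleens and -0.96 ± 0.20 in liver.

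Most chains of the IL-6 and IL-12 receptors were within 2-fold on the 3 arrays. Il6st, which encodes gp130, had levels of 0.87 on the SiO2 array, 0.95 on the SiO2-3TF-3C array and 0.85 on the liver array, the smallest spread of any receptor described here. Il6ra, its IL-6 binding partner, had levels of 3.71 on the SiO2 array, 3.37 on the SiO2-3TF-3C array and 3.34 on the liver array, so the SiO2-3TF-3C array and liver were within 0.04 of each other. Il11ra1 had levels of 2.23 on the SiO2 array, 1.82 on the SiO2-3TF-3C array and 1.88 on the liver array, likewise within 2-fold. Il12rb1, shared by the IL-12 and IL-23 receptors, had levels of 1.99 on the SiO2 array, 1.31 on the SiO2-3TF-3C array and 2.23 on the liver array, lowest on the SiO2-3TF-3C array (-0.68 ± 0.20). Its other probe put liver lowest instead, at -1.10 against the SiO2 array, so the liver direction depends on the probe. Il27ra, expressed on lymphocytes, departed from the family: at -0.71 on the SiO2 array, -1.07 on the SiO2-3TF-3C array and -2.27 on the liver array, it was 2.95-fold lower in liver (-1.56 ± 0.21). Il31ra was also lower in liver (-1.13), and Il23r was well above background on the SiO2 array only. Il12rb2 differed by -0.63 between the spleens and 0.24 in liver by its brightest probe, and by -1.07 and -0.80 by its other, so the spleen call and the liver direction depend on the probe.

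Of the IL-10 family receptors, both chains of the IL-10 receptor were lower in liver and little different between the spleens. Il10ra, the ligand-binding chain of leukocytes, had levels of 1.05 on the SiO2 array, 0.85 on the SiO2-3TF-3C array and -0.27 on the liver array, and Il10rb, the broadly expressed second chain, 2.07 on the SiO2 array, 1.80 on the SiO2-3TF-3C array and 0.89 on the liver array. The spleen differences were -0.20 ± 0.20 and -0.27 ± 0.20, and the liver differences -1.32 ± 0.20 and -1.18 ± 0.20. Il22ra1, the IL-22 receptor chain of epithelia and hepatocytes, had levels of -4.41 on the SiO2 array, -4.58 on the SiO2-3TF-3C array and -3.98 on the liver array. A second probe of Il22ra1 was well above background in liver only, at -4.38, against -6.73 and -6.11 on the spleen arrays. Both probes therefore put liver highest. Il20rb differed by -0.21 and -0.13. Il13ra1, the IL-13 receptor chain found on many non-lymphoid cells, was 2.29-fold higher in liver (1.20 ± 0.21; 0.92 after normexp background correction). Its levels were -3.03 on the SiO2 array, -2.996 on the SiO2-3TF-3C array and -1.83 on the liver array, so the spleens did not differ beyond the technical error.

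Il1rap, the accessory chain that IL-1, IL-33 and IL-36 receptors share, was the receptor with the largest difference in both comparisons. Its brightest probe had levels of -4.58 on the SiO2 array, -1.22 on the SiO2-3TF-3C array and 1.80 on the liver array. The SiO2-3TF-3C array was 10.3-fold above the SiO2 array (3.36 ± 0.24), liver was 83.6-fold above it (6.38 ± 0.24), and the SiO2-3TF-3C array was 8.15-fold below liver. The other probe carries another RefSeq transcript of the gene and read otherwise: -4.51 on the SiO2 array, -5.18 on the SiO2-3TF-3C array and -4.81 in liver, well above background on all 3 arrays. By that probe the SiO2-3TF-3C array and liver were -0.67 and -0.29 from the SiO2 array. The authors' deposited table lists that second probe and not the brightest one, and gives -0.58 and -0.41. Il1rap is known to make a membrane-bound and a shorter secreted form, the latter abundant in liver and blood; which form each probe reads remains unknown here. The hepatocyte markers had medians of 7.63 and 10.06 in the same comparisons, and their part in the Il1rap difference was not tested. The CpG-rich promoter printed above belongs to this gene.

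**Figure D3:**
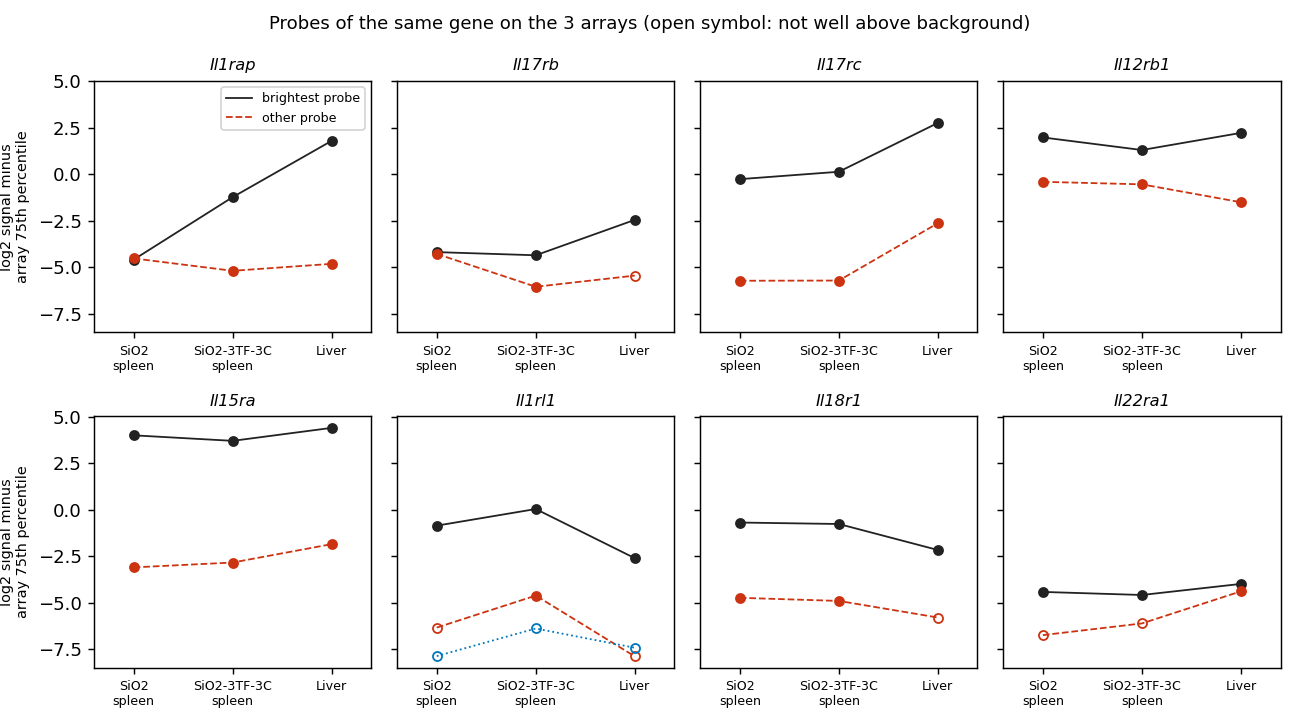
Level of every probe of 8 receptor genes on the 3 arrays (log2 signal minus the array's 75th percentile), with a solid line for the brightest probe, broken lines for the others and open symbols where a probe was not well above background. Il1rap parts, with its probes together near -4.5 on the SiO2 array and at 1.80 and -4.81 in liver, whereas both Il17rc probes are about 3 higher in liver.

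The other IL-1 receptor chains did not share the pattern of Il1rap. Il1r1, the signalling IL-1 receptor, had levels of -0.20 on the SiO2 array, -0.03 on the SiO2-3TF-3C array and 0.32 on the liver array, a span under 2-fold with liver highest. Il1rl1, the IL-33 receptor ST2 of mast cells, group 2 innate lymphoid cells and regulatory T cells, had levels of -0.85 on the SiO2 array, 0.04 on the SiO2-3TF-3C array and -2.60 on the liver array. It was 1.86-fold higher on the SiO2-3TF-3C array (0.89 ± 0.20) and 3.36-fold lower in liver (-1.75 ± 0.21). Its other two probes were not well above background on the SiO2 array or the liver array. The mean over the 3 probes gave -0.95 in liver, short of 2-fold, so that call rests on the brightest probe. For the spleen difference that mean was 1.37, past 2-fold, and the other probes read 1.72 ± 0.42 and 1.48 ± 1.51. The probe at 1.48 was not well above background on any array. All 3 of these values use SiO2 signals not well above background, so they do not settle whether Il1rl1 reached 2-fold between the spleens. Between the spleens the eosinophil genes stood at the values given beside Il5ra, the mast cell genes Cpa3 and Mcpt4 at 0.23 and -0.21, and Gata3 and Rora, genes of T and innate lymphoid cells, at -0.33 and 0.14. The part of these cells in the Il1rl1 difference was not tested. Il18r1, the IL-18 receptor of T and NK cells, had levels of -0.69 on the SiO2 array, -0.76 on the SiO2-3TF-3C array and -2.16 on the liver array, and liver was 2.78-fold lower (-1.48 ± 0.21). Il18rap, its partner chain, gave -0.06 between the spleens and -1.15 in liver.

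Il1r2, Il1r1, Il1rl2, Il1rl1, Il18r1 and Il18rap stand next to each other in the RefSeq gene order. In liver against the SiO2 array these neighbours did not move as a block: Il1r2, Il1rl1, Il18r1 and Il18rap were lower by at least 2-fold, Il1r1 was at 0.52, and Il1rl2 was not well above background on either array. Between the spleens Il1rl1 alone of the 5 measured on both arrays exceeded 0.18. The neighbours Il17re and Il17rc likewise differed from each other in liver, at 0.22 and 3.02, as did Il2ra and Il15ra, at -1.68 and 0.40.

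The IL-17 receptor chains split in liver. Il17rc, which pairs with Il17ra to bind IL-17A and IL-17F on epithelia and hepatocytes, had levels of -0.26 on the SiO2 array, 0.14 on the SiO2-3TF-3C array and 2.77 on the liver array. Liver was 8.12-fold above the SiO2 array (3.02 ± 0.20), and the second probe gave 3.09. The SiO2-3TF-3C array was 0.40 ± 0.20 above the SiO2 array by the brightest probe and 0.01 by the other, so Il17rc was near the SiO2 array there. Il17ra, the chain common to the family, ran opposite, at -0.78 on the SiO2 array, -0.50 on the SiO2-3TF-3C array and -1.93 on the liver array, and liver was 2.23-fold lower (-1.15 ± 0.21; -0.91 after normexp background correction). Il17rd also was lower in liver (-1.24 ± 0.21), with levels of -0.81 on the SiO2 array, -1.25 on the SiO2-3TF-3C array and -2.05 on the liver array; after normexp background correction it gave -0.89. Il17rb, the IL-25 receptor chain, was 3.32-fold higher in liver by its brightest probe (1.73 ± 0.23), with levels of -4.18 on the SiO2 array, -4.35 on the SiO2-3TF-3C array and -2.44 on the liver array. Its other probe was not well above background in liver and gave -1.77 between the spleens, and the mean over both probes put liver 0.28 higher, so this call rests on 1 probe. Il17re was dim and differed by 0.15 and 0.22.

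**Figure D4:**
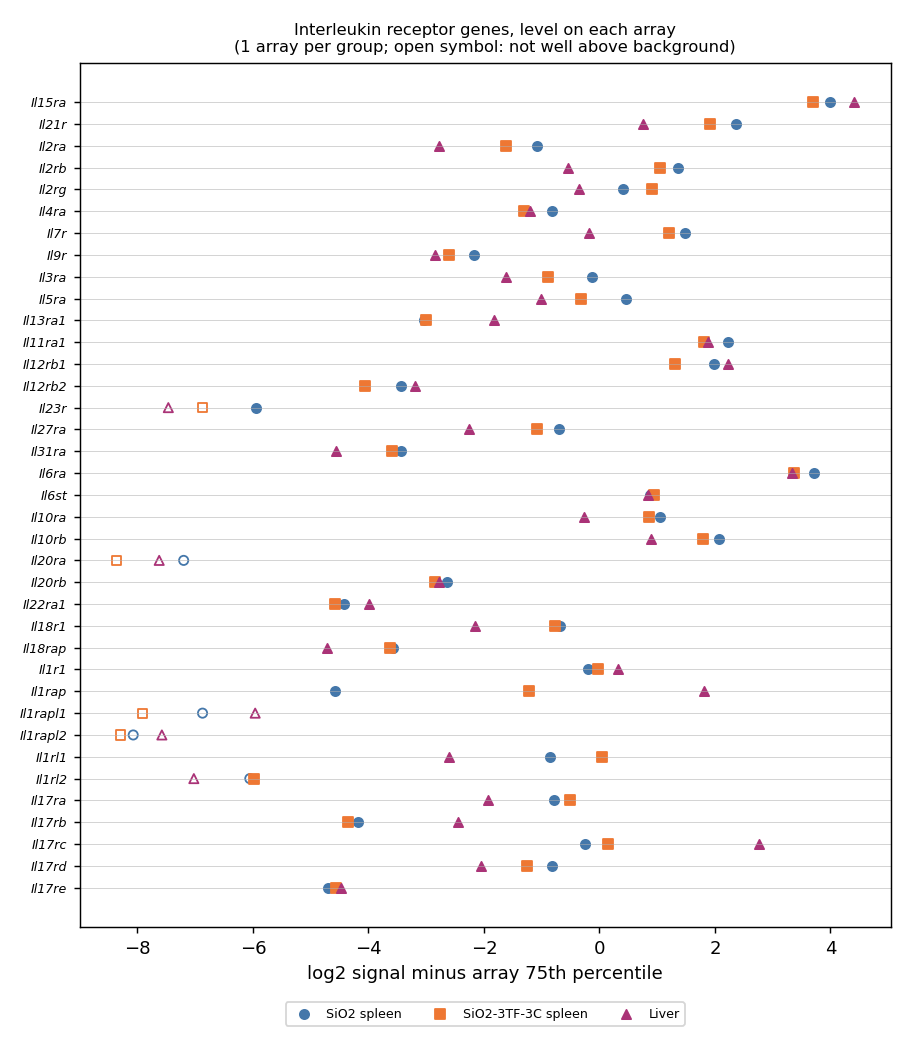
Level of each receptor gene on the 3 arrays (log2 signal minus the array's 75th percentile), 1 point per array, with open symbols where the probe was not well above background. Rows are to be read one at a time; in most rows liver is the leftmost filled symbol, and Il1rap, Il17rc, Il17rb and Il13ra1 show liver to the right of both spleens by at least 1.16.

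Set side by side, the 5 genes higher in liver had different values on the SiO2-3TF-3C array. Against the SiO2 array, Il1rap was at 3.36, Il17rc at 0.40, Il18bp at 0.12, Il13ra1 at 0.03 and Il17rb at -0.17. Of these, Il1rap alone reached 2-fold. The 23 genes lower in liver ranged from -1.10 (Il22ra2) to 0.89 (Il1rl1) between the spleens, with a median of -0.28. All 23 were higher on the SiO2-3TF-3C array than in liver, by 0.54 to 2.64. The 23 were chosen by their low liver value, which favours that direction, so nothing is concluded from it. Il4i1, the immune-regulatory amino acid oxidase of myeloid and B cells, was one of them, with levels of 4.84 on the SiO2 array, 4.25 on the SiO2-3TF-3C array and 3.23 on the liver array. It was 3.04-fold lower in liver (-1.60 ± 0.20) and -0.58 between the spleens.

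Partners of these receptors that carry other names were read from a separate list of 18 measured genes. On the SiO2-3TF-3C array 0 were at least 2-fold higher and 1 lower (median -0.10): Cntfr, the ciliary neurotrophic factor receptor, at -1.24, with levels of -1.54, -2.78 and -3.72 on the SiO2, SiO2-3TF-3C and liver arrays. In liver, where 15.1% of all genes were higher and 16.7% lower, 1 was higher and 6 lower (median -0.54), with Ctf1, cardiotrophin 1, at 3.64, Cntfr at -2.18 and Csf2rb2 at -1.58. Of 24 JAK, STAT and SOCS pathway genes, 0 reached 2-fold in either direction between the spleens (median -0.28), the largest differences being -0.61 for the kinase Jak2 and -0.52 for Socs7. In liver 1 was higher, the feedback inhibitor Socs2 at 1.60, and 6 were lower, with Jak2 at -2.01 and the phosphatase Ptpn6 at -1.60. None (0) of 22 genes of IL-1 and IL-17 signalling reached 2-fold between the spleens (median -0.14), the largest difference being -0.59 for the RNase gene Zc3h12a. In liver 0 were higher and 2 lower, both under the shares of all genes, Relb at -1.43 and Zc3h12a at -1.21. Apart from Cntfr, the measured genes of these lists were within 2-fold between the spleens. So were most of all genes measured, of which 5.23% were at least 2-fold higher and 1.39% lower.

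Acute phase genes, which hepatocytes induce under IL-6 and IL-1 and many of which liver also makes at rest, behaved otherwise. Of 21 measured, 19 were at least 2-fold higher on the SiO2-3TF-3C array than on the SiO2 array and 0 lower. Of all genes, 5.23% were higher and 1.39% lower. The median was 3.38 over the 17 well above background on both arrays. Against liver, 18 of the 21 were at least 2-fold lower (median -2.87), where 15.5% of all genes were. Fgb, the fibrinogen beta chain, had levels of -4.63, 4.95 and 6.68 on the SiO2, SiO2-3TF-3C and liver arrays. The heme carrier gene Hpx had -3.52, 3.75 and 5.88 and the serum amyloid gene Saa2 -5.78, 1.29 and 4.02, so in all 3 genes the SiO2-3TF-3C array lay between the SiO2 array and liver. The hepatocyte markers differed by a median of 7.63 in the same comparison, and their part in the acute phase differences was not tested. Il6, Il1a, Il6ra, Il6st and Il1r1 differed by -0.28, 0.04, -0.34, 0.07 and 0.18 between the same arrays, none of them by 2-fold. Il1rap, the accessory chain of the IL-1 receptor, differed by 3.36 by its brightest probe and by -0.67 by its other. Il1b is left out by the rule and was not read here.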

How the data were processed

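RNA was purified with a kit for blood and depleted of globin messages, and Cy3-labelled cRNA was hybridised, per the labels' protocols. The deposited scanner files hold linear background-subtracted intensity per spot, extracted with Feature Extraction 11.0.1.1, array design 026655 and build mm9, per the file headers (Agilent Feature Extraction 9.1 in the submitters' processing notes). The 3 arrays shared a slide and a scan. The authors' deposited table holds log2 values of 26049 probes, and each of its columns correlated with its own array's log2 intensity (r 0.993 to 0.996). Correlations with the other arrays were not computed. Its columns are not centred on 0 (medians 5.91, 5.91 and 5.91, maximum 16.58 in each), with a normalization not given in the sources used here.

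Spots with outlier flags were left out, spots of a probe averaged, and log2 processed signals scaled by each array's 75th percentile (569, 515 and 390 intensity units) over 39112 probes. RefSeq accessions named 27038 probes (69.1%) as 20546 genes, and the brightest probe stood for a gene. A gene well above background on 1 array of a pair has a bound, "at least N-fold", against the lowest signal well above background on the dim array. Arrays gave no test. Promoters came from RefSeq, GRCm38.p6. The calculation was tested on simulated data (Python 3.11.15, pandas 2.3.3, R 4.3.3, limma 3.58.1).

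The genes, lists, markers and alternatives were chosen with earlier results of these data known. Values on all arrays are given for 42 genes: 38 by rule (those at least 2-fold apart with a mean above the median gene, and a fixed set of members), Il12a, Il22 and Il22ra2 as a group of 5 or fewer called between the spleens, and Il21, chosen after its values were seen. The other 37 are named with differences or counted. Of each other list the largest differences are named, apart from a gene that is not reported here. Cd68, Ly6g and Ifnl2 of the lists had no named probe. The files lack a mean signal column, so the normexp alternative used the median signal with an offset of 50. The alternatives were 3 scalings, normexp, the deposited table, the mean over probes, 3 filters, 1.5-fold as the limit and flagged spots kept; 2 more, bounds in the medians and each other probe, were added after the data were seen.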

Additional observations from a re-analysis of the deposited data

How the results depend on the processing

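Under 13 other settings, 141 values of counts and medians kept their direction and stayed close to the reported one, 38 moved and 4 reversed, as did 1173, 104 and 9 values of single genes and gene lists. Named genes at least 2-fold apart stayed so under every alternative in 15 of 24 cases for liver against SiO2 array, in 10 of 20 for SiO2-3TF-3C array against liver and in 0 of 4 for the spleens (Il1rap, Il12a, Il22, Il22ra2). Quantile normalization, normexp and the deposited table shifted the median of all genes by up to 0.12, 0.19 and 0.14 in a comparison.

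Normexp, whose offset draws dim signals together, left 0 genes lower between the spleens. For liver against SiO2 array it gave 2 higher and 15 lower, with medians of -0.11 over all members, 0.047 for ligands (reversed) and -0.33 for receptors. For SiO2-3TF-3C array against liver it gave 10 higher and 2 lower, with medians of -0.041 (reversed), -0.13 for ligands (reversed) and 0.12 for receptors.

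The deposited table holds 54 of the 79 genes, of which 40, 43 and 38 were well above background on the SiO2, SiO2-3TF-3C and liver arrays. It gave 0 genes higher between the spleens, 3 higher and 15 lower in liver with a ligand median of -0.13, and a receptor median of 0.71 for SiO2-3TF-3C array against liver. Il1rap reversed there, at -0.58 and -0.41 for the SiO2-3TF-3C array and liver against the SiO2 array, and by its other probe at -0.67 and -0.29, since the table lists only that probe.

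With the mean over all probes 2 genes were higher between the spleens. Without a filter on dim genes 6 were lower there, 9 were higher in liver (medians -0.37 over members and -0.068 for ligands), and 9 were lower on the SiO2-3TF-3C array than on the liver array (ligand median -0.18, reversed; receptor median 0.25). With only genes above the median gene, 30 remained on each array. These gave 0 lower between the spleens, 3 higher in liver (medians -1.17, -0.88 for ligands and -1.18 for receptors) and 2 lower against liver (medians 0.76, 0.51 and 0.80). At 1.5-fold, 3 were higher and 11 lower between the spleens, and 12 lower against liver.

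Between the spleens the median of the partner list turned from -0.10 to 0.032 with quantile normalization, 0.0021 with normexp, 0.075 in the deposited table and 0.0002 with the mean over probes, and the IL-1 and IL-17 signalling median to 0.016 in the deposited table. Other causes were not tested. No paired analysis was possible because each group has 1 array. Of the 79 genes, 12 were not well above background on any array. The text gives no level for them, and the level figures show them as open symbols.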
